A study of Mus musculus with 8 samples.

Results

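Ppara, the gene of the nuclear receptor PPARα, was followed across the 4 groups of livers together with 7 genes that it is known to switch on during fasting: Cpt1a, Pdk4, Cyp4a10, Cyp4a14, Acot1, Fgf21 and Angptl4. Every probe set that the annotation of the array assigns to these 8 genes was taken, of 19324 gene symbols on the array. This gave 14 probe sets of 45037, of which 12 carried 1 symbol. The other two were shared with a close relative, 1 between Acot1 and Acot2 and 1 between Cyp4a10 and Cyp4a31. The shared one was the only probe set for Cyp4a10, so 7 of the 8 genes had a probe set of their own. Ppara and Cpt1a had 3 probe sets each, Angptl4 and Acot1 had 2, and the rest had 1.

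PPARα is a receptor for fatty acids and their derivatives. In fasting, fatty acids released from adipose tissue reach the liver, and PPARα, paired with the receptor RXR, turns on genes that carry fatty acids into mitochondria, oxidise them and send the signal of the fasted liver to other organs. Livers that regenerate after resection also take up fat for a short time, in mice that have eaten little. How the mice were fed is not stated in the labels or the methods, so the word fasting describes how these genes are known and not the state of these animals.

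The livers came from 8-week-old BALB/c mice that had received a recombinant adenovirus (rAd.) 5 days before an extended liver resection (LR) of 78%. The virus carried either human A20, an inhibitor of NF-κB signalling, or β-galactosidase (βgal) as the control protein, and the authors place the transgene in only a part of the hepatocytes. The pre-βgal and pre-A20 samples were the lobes removed at LR, and the post-βgal and post-A20 samples were the remnant liver 24 h later. Each group had 2 arrays, each with the pooled RNA of 3 mice, so that the SDs below are between 2 pools. Every group carried adenovirus, and no group without virus or without surgery was analysed here. The treatment text of the post-A20 records repeats the βgal wording, while their titles, source names and tissue labels give A20, which was followed.

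The signal is a normalised intensity on a linear scale, with array medians of 152.6 to 165.8. Levels of different probe sets cannot be set against each other, since each binds its target differently. Hepatocyte markers were high in all 8 arrays: of 8 listed 7 could be read, Alb spanned 18087 to 19358, the dimmest (Serpinc1) spanned 6533 to 8952, and their summed signal spanned 92604 to 100471. The summed signal of 4 of 6 listed neutrophil markers was 2029 to 2860.0 in pre-βgal, 4039 to 4646 in post-βgal, 959 to 1045 in pre-A20 and 1322 to 1513 in post-A20. That of 7 of 7 Kupffer cell and macrophage markers was 5969 to 6500 in pre-βgal, 4452 to 5655 in post-βgal, 3555 to 3785 in pre-A20 and 5435 to 5856 in post-A20. In bulk RNA, fewer cells of a type and less RNA per cell cannot be told apart. Array 1 of pre-βgal and array 1 of post-βgal stood apart in RNA integrity: the ratio of 3′ to 5′ β-actin signal was 7.0 and 3.64 there and 1.27 to 1.62 in the other 6. Values without these 2 arrays are given beside each call below that was refitted and lost without them, and beside some other values.

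The promoter sequences of the 4 genes that carry the findings below and are in the RefSeq promoter table (GRCm38.p6) are shown first: the receptor itself, its mitochondrial gatekeeper target, and 2 targets whose signal rose after LR. The table held 5 of the 8 members. Each line gives the 250 bases before the start that this table uses, read 5′ to 3′ on the gene's strand, with capitals marking AGGTCA, the core letters that nuclear receptors bind, or its reverse complement TGACCT. For Ppara and Cpt1a the start used lies inside the gene span given below, downstream of its first base.
Ppara, chr15:85735526-85735775 (+ strand): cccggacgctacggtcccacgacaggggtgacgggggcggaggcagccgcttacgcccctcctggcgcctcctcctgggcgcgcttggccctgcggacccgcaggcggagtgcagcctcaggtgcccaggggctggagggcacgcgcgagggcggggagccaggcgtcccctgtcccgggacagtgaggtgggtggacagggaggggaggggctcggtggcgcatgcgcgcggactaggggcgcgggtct
Cpt1a, chr19:3323051-3323300 (+ strand): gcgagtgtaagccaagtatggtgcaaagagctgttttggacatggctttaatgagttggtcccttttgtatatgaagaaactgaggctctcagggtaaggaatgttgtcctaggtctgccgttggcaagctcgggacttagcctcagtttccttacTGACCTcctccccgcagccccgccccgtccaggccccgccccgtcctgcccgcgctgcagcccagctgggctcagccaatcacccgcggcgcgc
Pdk4, chr6:5496279-5496528 (- strand): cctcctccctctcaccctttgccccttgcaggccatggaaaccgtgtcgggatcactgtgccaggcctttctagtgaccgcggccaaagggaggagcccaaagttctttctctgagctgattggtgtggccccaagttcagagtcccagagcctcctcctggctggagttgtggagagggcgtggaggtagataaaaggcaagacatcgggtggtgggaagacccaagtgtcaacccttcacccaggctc
Fgf21, chr7:45615491-45615740 (- strand): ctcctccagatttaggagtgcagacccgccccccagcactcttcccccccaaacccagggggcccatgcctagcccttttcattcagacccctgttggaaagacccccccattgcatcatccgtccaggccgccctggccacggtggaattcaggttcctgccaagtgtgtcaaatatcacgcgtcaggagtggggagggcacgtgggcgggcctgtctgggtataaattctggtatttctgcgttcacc

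Of the 5 promoters, 1 held the core letters on either strand, in Cpt1a, 94 to 89 bases before the start that the table uses. Of 32851 promoter windows of the same length, 14% held them. The longer element that PPARα and RXR bind together, AGGTCANAGGTCA with up to 2 mismatches in its 12 fixed letters and searched on both strands, was in 0 of the 5 windows and in 3.24% of all windows. The searches overlap, and with mismatches a window can hold the longer element without the exact shorter one. A match or its absence describes only the letters of these windows.

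Across the 8 genes, the members did not move as a block. Resection came with higher signal of Pdk4 with either transgene, and of Cyp4a14 in A20 livers and averaged over both transgenes. A20 came with lower Cyp4a14 before LR. Averaged over both times, A20 came with lower Cyp4a14 and Fgf21 and with higher signal of 1 of the 3 Ppara probe sets. Apart from that of Cyp4a14 averaged over both transgenes, each of these calls was lost without some single arrays. Each gene was counted through its probe set of highest mean, with limma's test over all 42703 probe sets kept and an adjusted p under 0.05 as the call. For A20 against βgal before LR, 0 of 8 genes were called higher and 1 lower, where 0.532% of all probe sets were called higher and 1.3% lower. After LR, limma called 0 of 8 in either direction, with 0.0843% of all probe sets called higher and 0.199% lower, and 3 genes had an unadjusted p under 0.05 (18.4% of all probe sets). For LR, 1 of 8 was called higher and 0 lower in βgal livers (0.782% and 0.323% of all probe sets), and 2 of 8 were called higher and 0 lower in A20 livers (0.316% and 0.229%). An unadjusted p under 0.05 was reached by 5 genes for A20 before LR (21.3% of all probe sets). For LR it was reached by 5 in βgal livers (20.5%) and 4 in A20 livers (14.7%). The median log2 fold change of the 8 genes was −0.32 for A20 before LR and 0.36 after it, and 0.91 for LR in βgal livers and 0.53 in A20 livers, beside −0.03, 0.03, −0.05 and 0.02 over all genes. Each of these comparisons shares a group with 2 of the others.

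**Figure D1:**
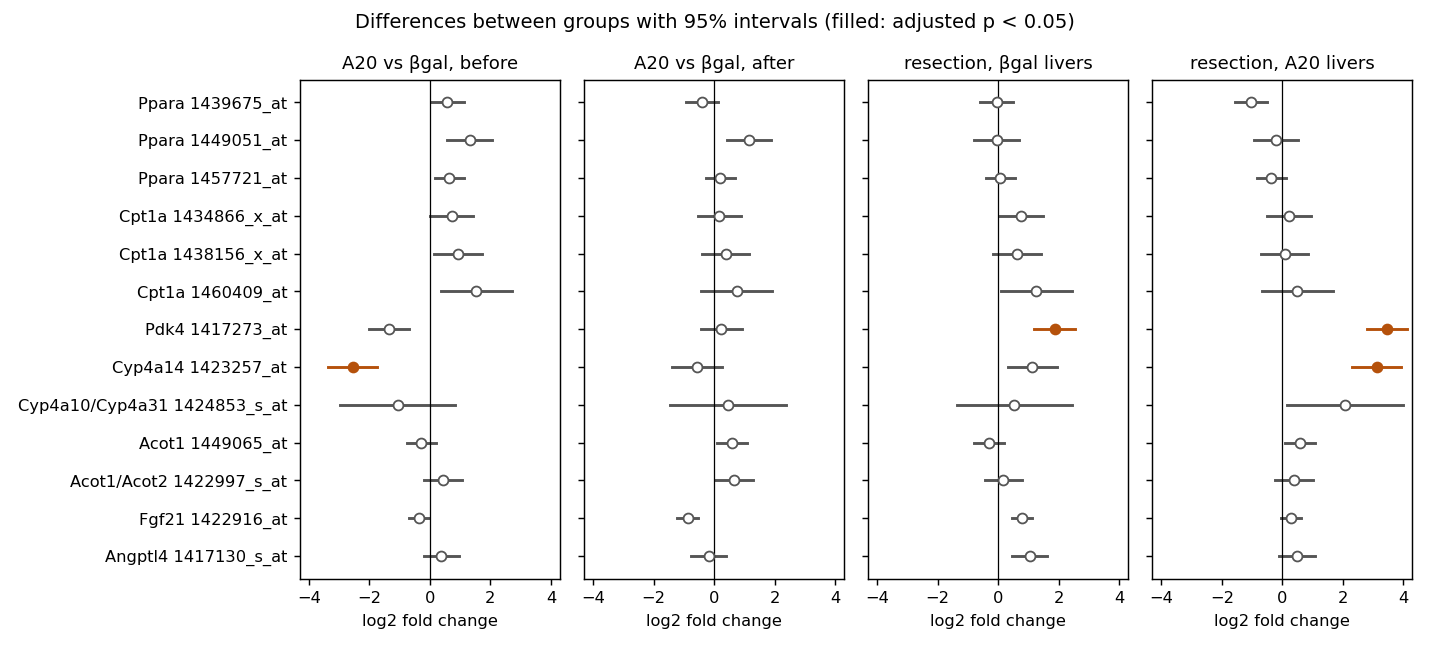
Log2 fold changes on the log2(signal + 16) scale of 13 member probe sets with limma's 95% intervals, in the 4 comparisons of 2 groups (2 arrays each); filled points had an adjusted p under 0.05. Called points are Cyp4a14 for A20 before LR, Pdk4 for LR in βgal livers, and Pdk4 and Cyp4a14 for LR in A20 livers; the dim Angptl4 probe set 1453410_at is not drawn.

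Ppara, at chr15:85734910-85806851, encodes the receptor. Its 3 probe sets were all above pre-βgal in the pre-A20 arrays, and they parted after LR. Probe set 1449051_at read 573 and 971 in pre-βgal, 575 and 899 in post-βgal, 1556 and 2280 in pre-A20, and 1597 and 1652 in post-A20. All 4 A20 arrays thus lay above all 4 βgal arrays, whatever the time. Before LR, A20 livers averaged 1918 ± 512 (SD, n = 2) against 772.0 ± 282 with βgal, and the log2 fold change was 1.32 (SE 0.32, 95% interval 0.58 to 2.06, adjusted p = 0.0780 by limma). After LR they were 737 ± 229 in post-βgal and 1624 ± 39.1 in post-A20, a log2 fold change of 1.16 (SE 0.32, adjusted p = 0.156). Averaged over both times, this probe set rose with A20 by 1.24 on the log2 scale (SE 0.23, adjusted p = 0.0332), a fold of 2.36. LR left it with a log2 fold change of −0.05 in βgal livers (95% interval −0.79 to 0.69) and −0.21 in A20 livers (−0.95 to 0.53).

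The 2 arrays of low RNA integrity were also the 2 lowest arrays of this probe set. Without both of them, the log2 fold change with A20 was 0.94 before LR and 0.89 averaged over both times, and the averaged call was lost (adjusted p = 0.0601). With the β-actin ratio as a covariate the values were 1.00 (adjusted p = 0.0419) before LR and 0.96 (adjusted p = 0.021) on average. The averaged call was also lost without 1 array at a time: adjusted p = 0.0986 without post-βgal 1, 0.0665 without post-βgal 2, 0.0602 without pre-A20 1, 0.124 without pre-A20 2, 0.102 without post-A20 1 and 0.120 without post-A20 2. In each of these fits the 2 groups kept their order.

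Probe set 1439675_at gave another order for the same gene. It read 1180.3 and 1175 in pre-βgal, 1210 and 1065 in post-βgal, 2224 and 1397 in pre-A20, and 808 and 904 in post-A20. The pre-A20 arrays were the highest and the post-A20 arrays the lowest of all 8. Its mean went from 1810.0 ± 585 to 856 ± 68.3 with LR in A20 livers, a log2 fold change of −1.03 (SE 0.23, 95% interval −1.57 to −0.50, adjusted p = 0.112), and from 1177 ± 4.14 to 1137 ± 102.5 in βgal livers, a log2 fold change of −0.05 (adjusted p = 0.916). The difference between these responses was −0.98 on the log2 scale (adjusted p = 0.257), which did not pass. With the β-actin covariate the log2 fold change in A20 livers stayed at −1.03 (SE 0.21) and passed (adjusted p = 0.0391 by limma). Calls over all 42703 probe sets for this comparison rose from 233 to 1746 with the covariate. Values that pass only with the covariate, here and below, are to be read beside such a rise.

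Probe set 1457721_at had the smallest differences. It read 756 and 972 in pre-βgal, 887 and 913 in post-βgal, 1581 and 1137 in pre-A20, and 1029 and 1053 in post-A20. The A20 arrays were again above the βgal arrays at each time, by a log2 fold change of 0.64 before LR (adjusted p = 0.144) and 0.21 after it (adjusted p = 0.606). The share of all probe sets in which the A20 arrays lay above the βgal arrays without overlap was 21.3% before LR and 34.2% after it, so that such an order among 2 against 2 arrays was common. In the order of the 4 group means, pre-A20 was highest for all 3 Ppara probe sets, while post-A20 came next for 1449051_at and 1457721_at and last for 1439675_at. Neighbours in these orders did not pass the test where they were compared, and post-A20 and pre-βgal, neighbours for 1449051_at, were not compared with each other. Averaged over both times, the log2 fold change with A20 was 0.09 for 1439675_at (adjusted p = 0.775) and 0.42 for 1457721_at (adjusted p = 0.136), so that the averaged call of Ppara rests on 1 of its 3 probe sets.

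**Figure D2:**
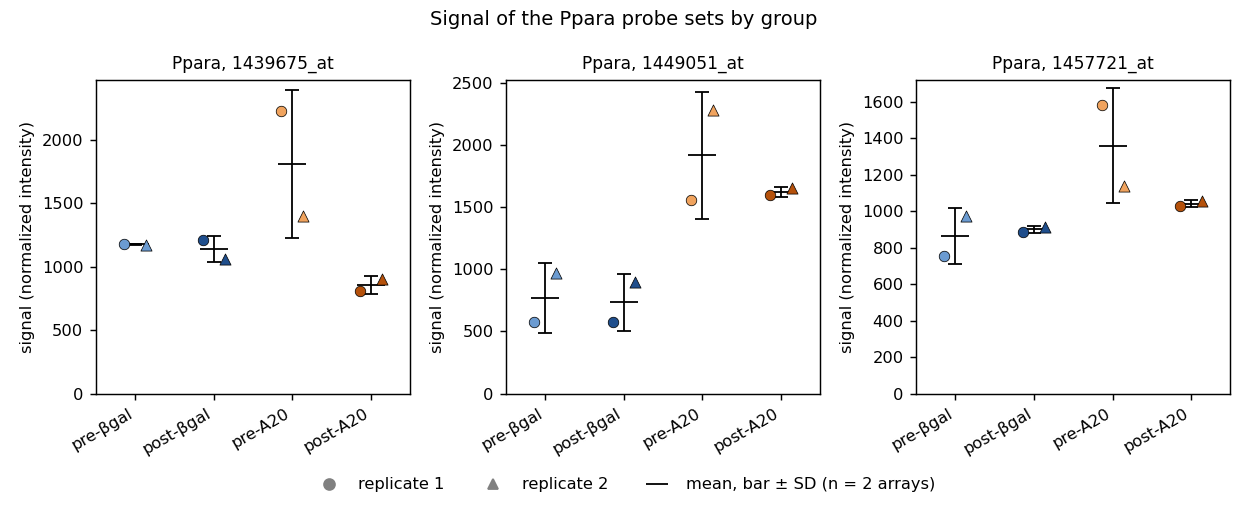
Normalised signal (linear axis from 0) of the 3 Ppara probe sets in each array of the 4 groups, with the group mean and SD (n = 2). In 1449051_at both A20 groups lie above both βgal groups, from 1556 up against 971 at most, while in 1439675_at the post-A20 arrays are the lowest, at 808 and 904.

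Cpt1a, at chr19:3322326-3385735, encodes the liver enzyme that attaches fatty acids to carnitine for entry into mitochondria, the gate of their oxidation. In each of its 3 probe sets the pre-βgal mean was the lowest of the 4 groups and the post-A20 mean the highest, and no comparison passed. Probe set 1460409_at, the brightest, read 606 and 1901 in pre-βgal, 2160 and 3142 in post-βgal, 3947 and 2479 in pre-A20, and 3675 and 5282 in post-A20. The pre-βgal arrays were below every other array. A20 against βgal gave a log2 fold change of 1.53 before LR (SE 0.51, 95% interval 0.35 to 2.70, adjusted p = 0.148) and 0.76 after it (adjusted p = 0.444), and LR gave 1.26 in βgal livers (adjusted p = 0.220) and 0.49 in A20 livers (adjusted p = 0.710).

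Array pre-βgal 1 decided much of the size of these values for 1460409_at. Without it, the log2 fold change for A20 before LR was 0.71 and that for LR in βgal livers was 0.45, and without both arrays of low integrity they were 0.71 (adjusted p = 0.321) and 0.72 (adjusted p = 0.433). Without pre-βgal 2 they were 2.34 (adjusted p = 0.0175) and 2.08 (adjusted p = 0.0385), and with the β-actin covariate 0.93 (adjusted p = 0.0736) and 1.02 (adjusted p = 0.034).

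The remaining Cpt1a probe sets, 1434866_x_at and 1438156_x_at, carry the suffix by which the maker marks probes that may also bind other transcripts. The first read 696 and 399 in pre-βgal, 1063 and 779 in post-βgal, 1016 and 757 in pre-A20, and 879.7 and 1196 in post-A20. The other read 230.3 and 130 in pre-βgal, 344 and 219 in post-βgal, 410.2 and 289 in pre-A20, and 289 and 459 in post-A20. Both were above pre-βgal in pre-A20 without overlap, with log2 fold changes of 0.72 (adjusted p = 0.234) and 0.93 (adjusted p = 0.176). With the β-actin covariate these became 1.01 (adjusted p = 0.0427) and 1.24 (adjusted p = 0.0389), and without both arrays of low integrity 1.11 (adjusted p = 0.116) and 1.31 (adjusted p = 0.103). After LR the A20 and βgal arrays overlapped in both.

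**Figure D3:**
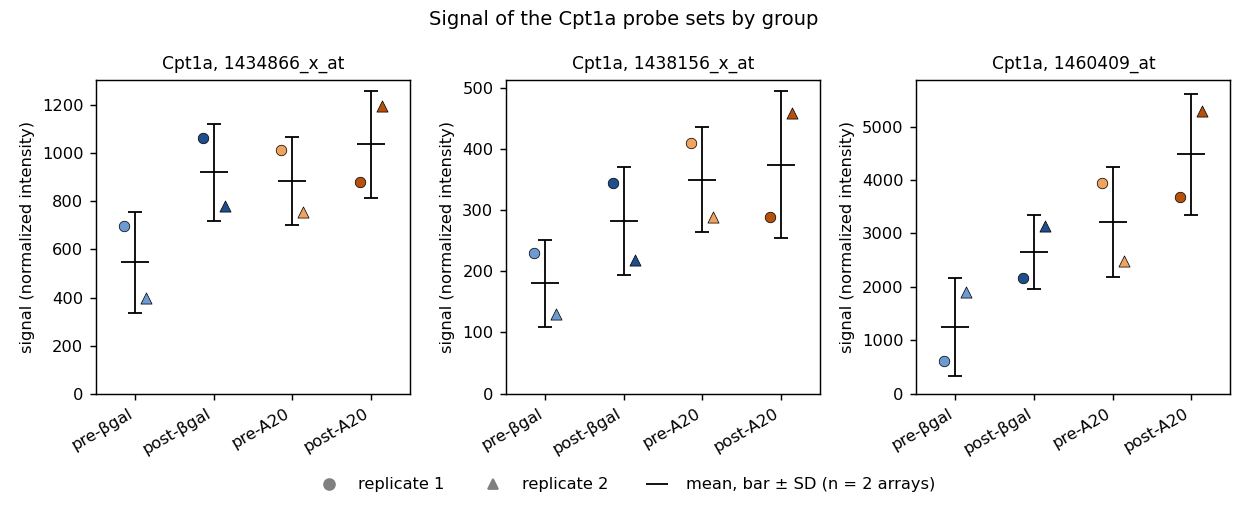
Normalised signal (linear axis from 0) of the 3 Cpt1a probe sets in each array of the 4 groups, with the group mean and SD (n = 2). The pre-βgal mean is the lowest in each panel (547.5, 180.0 and 1253), and array 1 of that group is the higher of its pair in the 2 left panels and the lower in the right panel.

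Probe sets of 1 gene can differ because they lie at different places in the transcript, and their ratio within an array shows where they part. The ratio of Ppara 1439675_at to 1449051_at was 2.06 and 1.21 in pre-βgal, 2.10 and 1.18 in post-βgal, 1.43 and 0.613 in pre-A20, and 0.506 and 0.547 in post-A20. It was highest in the 2 arrays of low integrity and lowest in post-A20, whose β-actin ratios were 1.40 and 1.31. The ratio of Cpt1a 1434866_x_at to 1460409_at was 1.15 in pre-βgal 1 and 0.492 in post-βgal 1, and 0.210 to 0.305 in the other 6 arrays. The 2 Cpt1a probe sets with the suffix kept a ratio of 2.48 to 3.56 to each other, and their log2 signals correlated at 0.96 over the 8 arrays, against 0.50 and 0.52 with 1460409_at. The 3 Ppara probe sets correlated at 0.09 to 0.72. These are descriptions over arrays that share groups. The part of RNA integrity in these differences was not tested beyond the values with the covariate and without the 2 arrays.

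**Figure D4:**
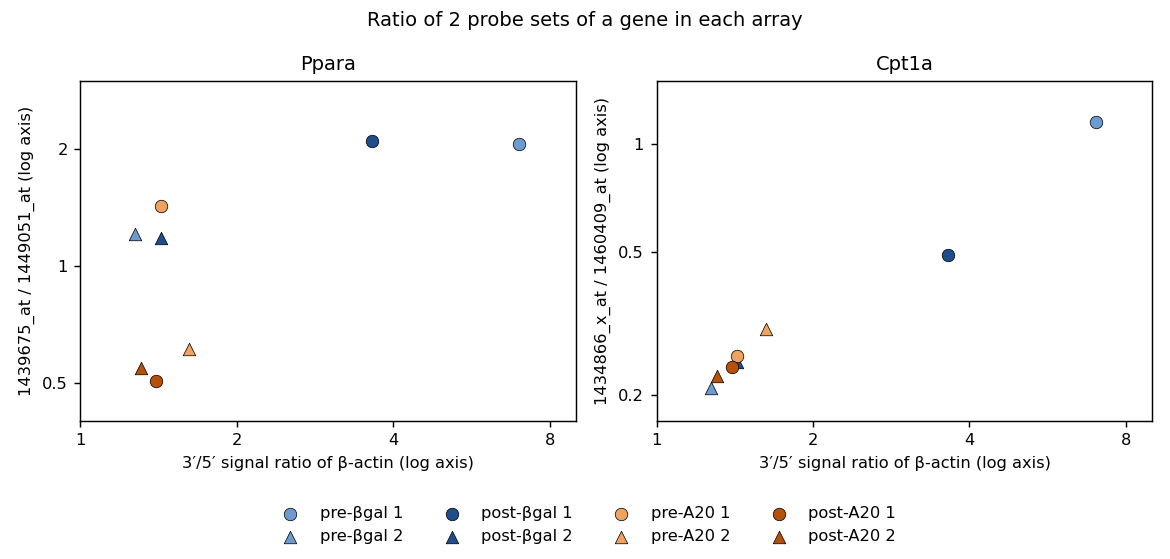
Ratio of the signals of 2 probe sets of a gene within each of the 8 arrays, for Ppara (left) and Cpt1a (right), against the ratio of 3′ to 5′ β-actin signal, all axes on a log scale. The arrays pre-βgal 1 and post-βgal 1 lie to the right in both panels, with Cpt1a ratios of 1.15 and 0.492, while the 2 post-A20 arrays lie lowest for Ppara at a β-actin ratio of 1.31 and 1.40.

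Pdk4, at chr6:5483351-5496278, encodes the pyruvate dehydrogenase kinase that shuts off glucose oxidation when fatty acids are burnt. It had the largest fold of the 8 genes with LR. Its signal was 305 and 191 in pre-βgal, 735 and 1154 in post-βgal, 87.1 and 84.0 in pre-A20, and 919 and 1304 in post-A20. The remnant livers of both transgenes were above all lobes taken before LR, and pre-A20 was the lowest group. Pdk4 rose with LR in βgal livers by 1.87 on the log2 scale (SE 0.29, 3.64-fold, adjusted p = 0.0346) and in A20 livers by 3.45 (SE 0.29, 10.95-fold, adjusted p = 0.00809). Before LR it was lower with A20, with means of 85.5 ± 2.17 and 248 ± 80.9 (n = 2) and a log2 fold change of −1.34 (SE 0.29, adjusted p = 0.0594), and after LR the log2 fold change was 0.25 (95% interval −0.42 to 0.91). The difference of the responses to LR was 1.59 (SE 0.41, unadjusted p = 0.00482, adjusted p = 0.225 by limma), so a larger response with A20 was not shown.

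The averaged response of Pdk4 to LR, 2.66 on the log2 scale (adjusted p = 0.00183), kept its call under each alternative, each left-out array included. The call in βgal livers was lost without post-βgal 1 (adjusted p = 0.0821), post-βgal 2 (0.157), pre-A20 1 (0.0814), pre-A20 2 (0.081), post-A20 1 (0.0632) or post-A20 2 (0.0625) in limma's fit, at log2 fold changes of 1.55 to 2.18. Without both arrays of low integrity it was 2.50 (adjusted p = 0.0171). In A20 livers it was lost without pre-A20 1 (0.0593), pre-A20 2 (0.0974) or post-A20 2 (0.0959), at 3.20 to 3.47.

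Cyp4a14 and Cyp4a10, neighbours on chromosome 4, encode cytochrome P450 enzymes that oxidise the far (omega) end of fatty acids and are among the genes that respond most to PPARα ligands. Cyp4a14, at chr4:115486200-115496158, read 814 and 1221 in pre-βgal, 1988 and 2421 in post-βgal, 195 and 125 in pre-A20, and 1074 and 2038 in post-A20. The pre-A20 arrays were below all others. Cyp4a14 was lower with A20 before LR, with means of 160 ± 49.3 and 1018 ± 288 (n = 2), and the log2 fold change was −2.56 (SE 0.35, 5.88-fold, adjusted p = 0.0274). After LR the groups overlapped, at −0.56 (95% interval −1.37 to 0.25, adjusted p = 0.412). It rose with LR in A20 livers by 3.12 (8.68-fold, adjusted p = 0.0186), and in βgal livers, without overlap, the log2 fold change was 1.13 (adjusted p = 0.148). The difference of these responses was 1.99 (SE 0.49, unadjusted p = 0.00403, adjusted p = 0.224), which did not pass. Averaged over both times, the log2 fold change with A20 was −1.56 (SE 0.25, adjusted p = 0.0249 by limma). It combines the −2.56 before LR with the −0.56 after LR, which did not pass. Without single arrays the average ran from −1.79 to −1.33, and its call was lost in most of these fits.

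The call of Cyp4a14 for A20 before LR was lost without pre-βgal 1 (adjusted p = 0.0546 in limma's fit), pre-A20 1 (0.0657), pre-A20 2 (0.237), post-A20 1 (0.0505) or post-A20 2 (0.0504), with log2 fold changes of −2.85 to −2.27, and without both arrays of low integrity (−2.84, adjusted p = 0.0516). That for LR in A20 livers was lost without pre-A20 1 (0.0753), pre-A20 2 (0.183) or post-A20 2 (0.134), with 2.66 to 3.41. Neutrophil and Kupffer cell marker sums were lowest in pre-A20 too, as given above, as was that of T and NK cells (1560 and 1561). The sums of sinusoidal endothelium (3875 and 4043), stellate cell and fibroblast (5182 and 5229) and skeletal muscle markers (603 and 676) were highest in pre-A20. The 5 muscle markers were dim, on average below the array medians. A sum follows its brightest members. For A20 before LR the median log2 fold change was 0.042 for the endothelial and 0.245 for the stellate cell and fibroblast markers, with 0 called. It was −1.179 for neutrophil markers (2 called lower), −0.537 for Kupffer cell and macrophage markers and −0.162 for T and NK cell markers (0 called). The part of these cell types in the Cyp4a14 and Pdk4 levels was not tested.

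The probe set shared by Cyp4a10 (chr4:115518287-115533649) and Cyp4a31 varied widely between pools, most in pre-βgal. It read 412 and 2851 in pre-βgal, 1172 and 2165 in post-βgal, 643 and 406 in pre-A20, and 1447 and 3394 in post-A20. The low pre-βgal array was again the one of lowest RNA integrity. Its log2 fold change was −1.07 for A20 before LR (SE 0.83, 95% interval −2.98 to 0.84) and 2.08 for LR in A20 livers (adjusted p = 0.303), where the groups did not overlap. With the β-actin covariate these were −2.07 (adjusted p = 0.027) and 1.91 (adjusted p = 0.0271). Without pre-βgal 2 the first value turned to 0.30, and without both arrays of low integrity it was −2.44 and not called. The signal cannot be divided between the 2 genes.

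Acot1, at chr12:84009502-84017670, encodes a cytosolic thioesterase that frees fatty acids from coenzyme A. Probe set 1449065_at read 1002 and 719 in pre-βgal, 726 and 640 in post-βgal, 684 and 710 in pre-A20, and 914 and 1191 in post-A20. With A20 it was below βgal before LR and above it after LR, without overlap either time, as did 9.99% of all probe sets in one order or the other. The log2 fold changes were −0.28 (adjusted p = 0.478) and 0.60 (adjusted p = 0.213), and their difference of 0.88 (SE 0.30) had an adjusted p of 0.258 by limma. The probe set shared with Acot2 read 415 and 652 in pre-βgal, 511 and 679 in post-βgal, 730 and 683 in pre-A20, and 776 and 1125 in post-A20. It was above βgal with A20 at both times, with log2 fold changes of 0.43 (adjusted p = 0.392) and 0.65 (adjusted p = 0.259), and none of its comparisons passed.

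Fgf21 and Angptl4 encode secreted proteins. Fgf21, at chr7:45613890-45615490, is a hormone of the fasted liver. It read 329 and 288 in pre-βgal, 495 and 589 in post-βgal, 232 and 238 in pre-A20, and 267 and 309 in post-A20. The post-βgal arrays were above all others, and the pre-A20 arrays below all others. Averaged over both times, Fgf21 fell with A20, with a log2 fold change of −0.62 (SE 0.10, adjusted p = 0.0271), and averaged over both transgenes it rose with LR by 0.53 (SE 0.10, adjusted p = 0.0401). Single comparisons did not pass: −0.87 for A20 after LR (means 288 ± 29.8 and 542 ± 66.1, adjusted p = 0.0663), −0.37 before LR (adjusted p = 0.202), and 0.78 for LR in βgal livers (adjusted p = 0.054) and 0.28 in A20 livers (adjusted p = 0.432). In limma's fits without 1 array, the A20 call was lost without post-βgal 1 or 2, pre-A20 1 or 2, or post-A20 1 or 2 (adjusted p from 0.0623 to 0.108), and the LR call without each of these or pre-βgal 2 (0.0561 to 0.172). The LR call was also lost after quantile normalisation (0.0606).

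Angptl4, at chr17:33774900-33781575, encodes an inhibitor of lipoprotein lipase. Probe set 1417130_s_at read 2247 and 1392 in pre-βgal, 4005 and 3336 in post-βgal, 2111 and 2496 in pre-A20, and 2917 and 3551 in post-A20. All 4 arrays of remnant liver were above all 4 arrays before LR. The log2 fold change with LR was 1.04 in βgal livers (SE 0.25, adjusted p = 0.0968) and 0.49 in A20 livers (adjusted p = 0.425), and 0.76 on average (adjusted p = 0.0695). With the β-actin covariate the averaged value was 0.84 and passed (adjusted p = 0.00325), as did 0.87 without both arrays of low integrity (adjusted p = 0.0326). The other probe set, 1453410_at, was dim, at 13.7 to 27.8 in the first 3 groups and 62.2 and 67.7 in post-A20. It reached the minimum mean of 40 only through post-A20, so its difference in that group carries no weight.

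**Figure D5:**
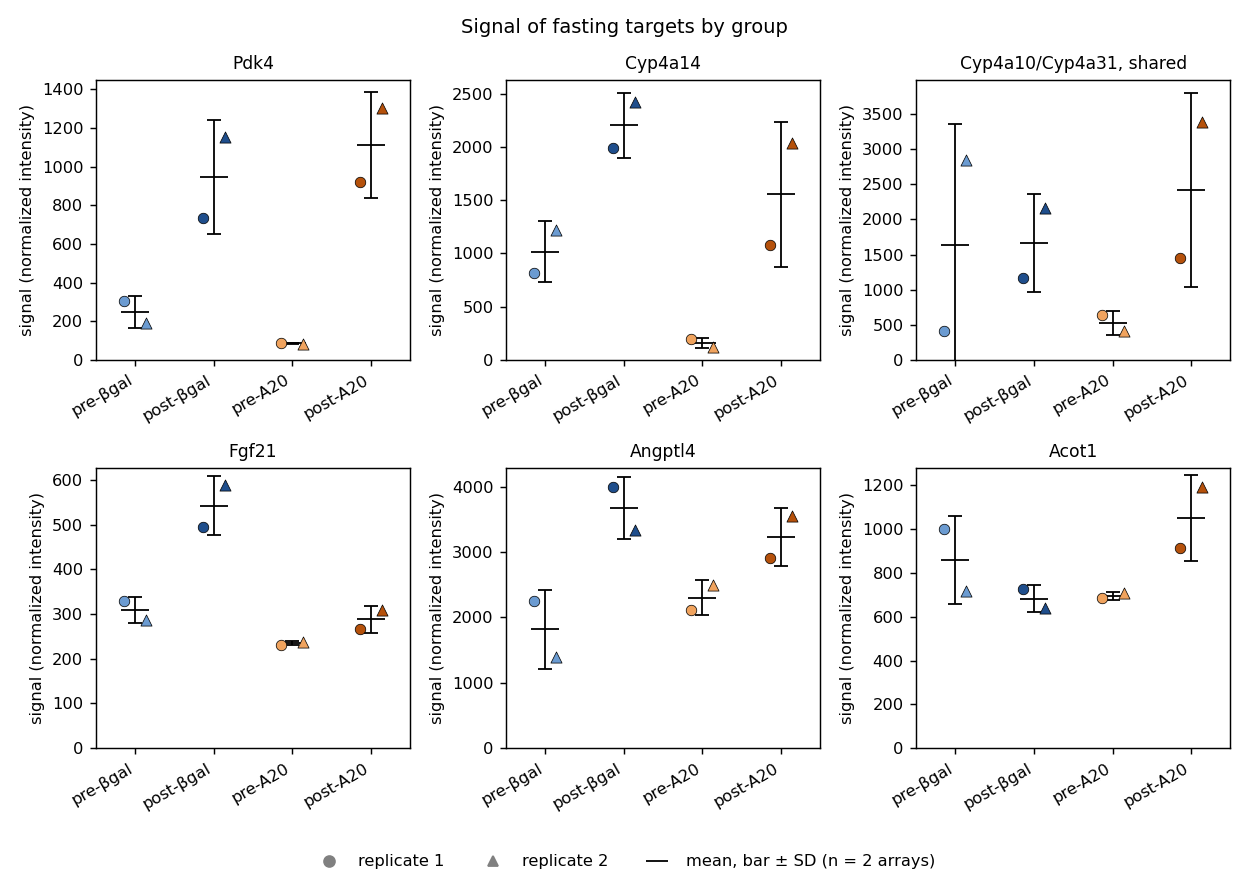
Normalised signal (linear axes from 0) of 6 target probe sets in each array of the 4 groups, with the group mean and SD (n = 2); the lower SD bar of the Cyp4a10 and Cyp4a31 probe set in pre-βgal runs below 0 and is cut at the axis. Pre-A20 is lowest for Pdk4 (84.0 and 87.1), Cyp4a14 (125 and 195) and Fgf21 (232 and 238), and both remnant groups are above the groups before LR for Pdk4 and Angptl4.

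Averages over the other factor used all 8 arrays. For A20 against βgal, 1 of 8 genes was called higher (Ppara, through 1449051_at and not its other probe sets) and 2 lower (Cyp4a14 and Fgf21), where 1.55% of all probe sets were called higher and 2.53% lower. The probe set of highest mean was narrowly 1449051_at, at percentile 93.3 of mean signal against 93.2 for 1439675_at. In the βgal groups it was the dimmer, at 772.0 and 737 against 1177 and 1137. The choice thus leaned on the A20 arrays, and through 1439675_at Ppara would not have been called (0.09, adjusted p = 0.775 by limma). The Ppara count below for A20 before LR rests on the same choice. For LR, 3 of 8 were called higher (Pdk4, Cyp4a14 and Fgf21) and 0 lower, where 1.88% and 1.23% were. For the difference of the responses to LR between A20 and βgal livers, limma called 0 of 8 genes and 1 probe set of all 42703 (0.00234%), and 4 of 8 had an unadjusted p under 0.05 (15.6% of all probe sets). The criterion of the study's methods asks that the lower end of the 90% interval of the fold is at least 1.5. Here it was taken from limma's interval and not from dChip's, so the genes that met it are not the study's calls. For that difference, to which the study did not apply it, 2 of 8 met it, Pdk4 and Cyp4a14 (0.93% of all probe sets). By the same criterion 3 of 8 passed for A20 before LR, Ppara higher and Pdk4 and Cyp4a14 lower (1.69% of all probe sets), 1 of 8 for A20 after LR, Fgf21 lower (0.993%), 1 of 8 for LR in βgal livers, Pdk4 (1.51%), and 2 of 8 for LR in A20 livers, Pdk4 and Cyp4a14 (1.11%). The groups compared did not overlap for 5 of 8 genes with LR in βgal livers and 6 of 8 in A20 livers, all higher after LR, where 17.3% and 29.4% of all probe sets were higher without overlap. Cyp4a14 and Pdk4 had log2 signals that correlated at 0.89 over the 8 arrays, and Pdk4 correlated at −0.80 with Ppara 1439675_at, both given as descriptions of arrays in 4 groups.

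Partners of PPARα were read next. Of 20 listed receptors and coregulators, 18 could be tested. For A20 before LR 1 fell and 0 rose, with 2 at an unadjusted p under 0.05 in limma's fit. For A20 after LR 0 were called (4 at that level). For LR in βgal livers 1 rose (9), and for LR in A20 livers 0 were called (2). Over all probe sets, the share at an unadjusted p under 0.05 was 21.3% for A20 before LR and 18.4% after it. For LR it was 20.5% in βgal livers and 14.7% in A20 livers. By adjusted p, 0.532% were called higher and 1.3% lower for A20 before LR, and 0.0843% and 0.199% after it. For LR these shares were 0.782% and 0.323% in βgal livers, and 0.316% and 0.229% in A20 livers. The counts of the lists here and below are to be read beside these shares. Ppard, the sister receptor PPARδ, read 348 and 348 in pre-βgal, 257 and 258 in post-βgal, 169 and 169 in pre-A20, and 211 and 206 in post-A20. It fell with A20 before LR by 0.98 on the log2 scale (adjusted p = 0.0186), a call lost without either pre-A20 array (0.0551 and 0.139) or either post-A20 array (0.0505 and 0.0504). Lpin1, a phosphatidate phosphatase that also acts with PPARα in the nucleus, read 503 and 387 in pre-βgal and 2095 and 1143 in post-βgal, and rose with LR there by 1.77 (adjusted p = 0.0483). This call was lost in limma's fit without any 1 of the 8 arrays (log2 fold change 1.34 to 2.21, adjusted p from 0.0552 to 0.197) and without both arrays of low integrity (1.52, adjusted p = 0.0945). In A20 livers Lpin1 went from 819 and 632 to 453 and 614, a log2 fold change of −0.44 (adjusted p = 0.568). The difference between its responses, −2.21, had an adjusted p of 0.217.

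Other targets of PPARα were read by function. Of 22 listed genes of fatty acid oxidation 19 could be tested. Limma called 0 for A20 before LR (4 at an unadjusted p under 0.05) and 0 for A20 after LR (4). It called 1 higher for LR in βgal livers (3) and 0 for LR in A20 livers (2). The gene called was Eci2, an isomerase for unsaturated fatty acids, at 3161 and 3102 in pre-βgal and 5703 and 5463 in post-βgal, a log2 fold change of 0.83 (adjusted p = 0.0424). Its call was lost without any 1 of the 8 arrays (0.80 to 0.86, adjusted p from 0.0504 to 0.239) and without both arrays of low integrity (0.81, adjusted p = 0.177). Of 11 listed omega oxidation genes and acyl-CoA thioesterases, 9 could be tested, and limma called 0 in each of the 4 comparisons (2, 5, 2 and 1 at an unadjusted p under 0.05, in the order A20 before and after LR, LR in βgal and in A20 livers). Averaged over both times, 2 of the 19 oxidation genes rose with A20, Slc27a2, a fatty acid transporter and acyl-CoA synthetase, by 0.86 (adjusted p = 0.021) and Abcd3, a transporter of the peroxisome membrane, by 0.52 (adjusted p = 0.0434), and 0 fell, with a list median of 0.25 beside −0.001 over all genes. Of the 9 omega oxidation genes and thioesterases 1 was called lower, the mitochondrial thioesterase Acot2 by 0.94 (adjusted p = 0.0355), and 0 higher, with a median of 0.40. The probe set that Acot2 shares with Acot1 went the other way, with a log2 fold change of 0.54 averaged over both times (adjusted p = 0.141 by limma). A fall of Acot2 thus rests on 1 of its probe sets. Of the 24 testable genes of lipid uptake, binding and storage 1 fell, the desaturase Scd1 by 0.73 (adjusted p = 0.0221), and 0 rose, with a median of −0.29. Over all probe sets, 1.55% were called higher and 2.53% lower with A20 in this average. The 4 genes Slc27a2, Abcd3, Acot2 and Scd1 were named after their values were seen. Their calls were not refitted under the alternatives or without the 2 arrays of low integrity.

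Genes of lipid uptake, binding and storage, the largest list, held the most calls of the lists in the 4 comparisons of 2 groups. Of 26 listed 24 could be tested, and 4 rose with LR in βgal livers and 3 in A20 livers, with 0 called lower. Over all probe sets 0.782% and 0.316% were called higher. At an unadjusted p under 0.05 in limma's fit were 12 of the 24 with LR in βgal livers and 9 in A20 livers. With A20, limma called 0 at either time (5 before and 7 after LR at an unadjusted p under 0.05). Cidec, a protein of the lipid droplet surface, read 94.5 and 99.4 in pre-βgal, 1318 and 1165 in post-βgal, 89.4 and 81.1 in pre-A20, and 639.9 and 949.8 in post-A20. It rose by 3.47 (adjusted p = 0.00173) and 2.98 (adjusted p = 0.00562). Fabp4, a fatty acid carrier best known from adipocytes and macrophages, rose by 2.66 (adjusted p = 0.00758) and 2.81 (adjusted p = 0.00961). Apoa4, a lipoprotein component, rose by 2.00 (adjusted p = 0.0191) and 2.60 (adjusted p = 0.0101). Plin4, another droplet coat protein, rose in βgal livers by 1.90 (adjusted p = 0.0201), and in A20 livers the log2 fold change was 1.26 (adjusted p = 0.0812). In βgal livers the calls of Plin4 and Apoa4 were lost without post-βgal 1 (adjusted p = 0.0902 and 0.109), pre-A20 1 (0.0519 and 0.0501), post-A20 1 (0.0540 and 0.0542) or post-A20 2 (0.0538 and 0.0540), that of Plin4 also without pre-A20 2 (0.0519), and that of Fabp4 without post-βgal 1 (0.0537). In A20 livers the call of Cidec was lost without pre-A20 2 (0.0531), and those of Fabp4 and Apoa4 without pre-A20 1 (0.0740 and 0.0796), pre-A20 2 (0.0974 each) or post-A20 2 (0.118 and 0.134), that of Apoa4 also without post-A20 1 (0.0634). Adipocyte markers read through 3 of 5 listed genes summed to 559 to 731 in the βgal arrays and 546 to 756 in the A20 arrays, with 0 called in any of the 4 comparisons.

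Fasting genes outside lipid metabolism were tested for 17 of 18 listed. At an unadjusted p under 0.05 in limma's fit were 6 for A20 before LR and 3 after it. For LR there were 6 in βgal livers and 6 in A20 livers. For A20 before LR 1 rose, Klf15, a transcription factor of amino acid breakdown, from 584 and 925 in pre-βgal to 1718 and 1645 in pre-A20 (log2 fold change 1.18, adjusted p = 0.0493). The lower pre-βgal array was the one of lowest RNA integrity, and without it the value was 0.85 (adjusted p = 0.0949). The Klf15 call was lost without any 1 of the arrays but pre-βgal 2 (adjusted p from 0.0838 to 0.294), without both arrays of low integrity (0.85, adjusted p = 0.105), and after quantile normalisation (0.0516). Limma called 0 for A20 after LR (3 at an unadjusted p under 0.05). With LR, Gpt2, an alanine aminotransferase, rose in βgal livers by 1.55 (adjusted p = 0.037), and Fkbp5, a glucocorticoid-induced chaperone partner, rose in A20 livers by 1.34 (adjusted p = 0.0421), the only calls in this list for those comparisons. Both were lost without any 1 of the post-βgal, pre-A20 and post-A20 arrays, with adjusted p from 0.0741 to 0.176 for Gpt2 and 0.0905 to 0.273 for Fkbp5, and Gpt2 also without both arrays of low integrity (1.21, adjusted p = 0.098). Relatives of the members and the receptors of Fgf21 formed the last list, with 10 of 11 tested. At an unadjusted p under 0.05 in limma's fit were 3 for A20 before LR and 4 after it. For LR there were 3 in βgal livers and 2 in A20 livers. In the 4 comparisons of 2 groups its calls were of Klb, the coreceptor that Fgf21 needs, which read 389 and 448 in pre-βgal, 182 and 188 in post-βgal, 531 and 457 in pre-A20, and 429.9 and 608 in post-A20. Klb fell with LR in βgal livers by 1.11 on the log2 scale (adjusted p = 0.0426), where Fgf21 was highest, and was higher with A20 after LR by 1.39 (adjusted p = 0.0388). Its LR call was lost without any 1 of the 8 arrays (adjusted p from 0.0513 to 0.217) and without both arrays of low integrity (−1.19, adjusted p = 0.142). Its A20 call was lost without any 1 of the post-βgal, pre-A20 and post-A20 arrays (0.0841 to 0.235) and without both arrays of low integrity (1.37, adjusted p = 0.0795). The difference of its responses to LR was 1.16 with an adjusted p of 0.217. With only the 4 arrays of a comparison in limma's fit, the calls of Pdk4, Cidec, Fabp4, Apoa4, Plin4, Lpin1, Eci2, Gpt2 and Klb for LR in βgal livers and of Cyp4a14, Ppard and Klf15 for A20 before LR were lost (adjusted p from 0.0526 to 0.209).

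Genes whose log2 signal followed that of Ppara 1449051_at most closely over the 8 arrays were Hnf4aos (Pearson r = 0.987), Mdfi (0.986), Cd22 (0.983), Decr2 (0.982) and Palb2 (0.98). For Cpt1a 1460409_at they were Ube2d1 (0.987), Patl1 (0.986), Pzp (0.979), Aifm1 (0.978) and Prep (0.975). For Pdk4 they were Rhpn2 (0.992), Stk24 (0.985), Bst1 (0.981), Chaserr (0.98) and Litaf (0.975). With 17790 genes compared over 8 arrays in 4 groups, values this high describe a shared pattern of group levels, and no other member was among them.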

How the data were processed

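Signals of liver RNA on 8 arrays (Affymetrix Mouse Genome 430 2.0) were grouped by the titles into 4 groups of 2. The authors deposited 1 table of normalised intensity on a linear scale. Their methods name dChip with invariant set normalisation of perfect match probes, per the labels MAS5 was used, and which of them made the table is not stated. It was used without further scaling. Background correction and probe weighting differ between these methods and affect dim probe sets most.

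Of 45101 probe sets 64 controls were left out, and probe sets with a mean of at least 40 in 1 group or more were kept (42703). The value 16 was added before log2. Limma 3.58.1 in R 4.3.3 fitted 1 mean per group with an intensity trend (4 residual degrees of freedom), for 7 comparisons. P-values were adjusted by the Benjamini-Hochberg method over all probe sets kept, separately for each comparison. Intervals are 95% intervals. Each gene was counted through its probe set of highest mean with 1 symbol, and Cyp4a10 through the shared one. Symbols came from the array annotation, coordinates from RefSeq (GRCm38.p6). All 8 genes and their 14 probe sets passed the filter. The number of arrays limits the precision, and p-values measure the spread between pools of 3 mice.

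The members and the lists of partners, targets and markers were chosen with earlier results of these data known. Named besides the members were at most 4 genes of each list, those called in a comparison of 2 groups with the smallest adjusted p, and the 5 genes most like Ppara, Cpt1a and Pdk4. Slc27a2, Abcd3, Acot2 and Scd1 were named outside this rule, through calls averaged over both times. Such averaged calls in the other lists were not read out. The numbers 1 and 2 in the titles are not said to pair pools, so no replicate block was used. Pools before and after LR may hold RNA of the same mice, as the paper treated its qPCR as matched pairs where it could. The p-values for LR make no use of such a pairing. Alternatives covered the offset, the filter, quantile normalisation, median centring, the variance trend, robust moderation, 1 probe set a gene, the methods' interval criterion, the replicate number as a block, the β-actin ratio as a covariate, only the 4 arrays compared, and each array left out. Leaving out both βgal arrays of low integrity was added after seeing the data. The fit was tested on simulated data.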

Additional observations from a re-analysis of the deposited data

Results flagged for a closer look

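For 2 probe sets the A20 arrays lay on opposite sides of the βgal arrays before and after LR, without overlap at either time. Ppara 1439675_at was above βgal with A20 before LR and below it after LR, and the difference of its log2 fold changes was −0.98 (adjusted p = 0.257 by limma). Acot1 1449065_at was below βgal before LR and above it after LR, with a difference of 0.88 (adjusted p = 0.258). Of all 42703 probe sets, 4264 (9.99%) showed opposite directions without overlap at both times, so that such patterns were common among groups of 2 arrays. The other Ppara probe sets and the probe set shared by Acot1 and Acot2 did not turn between the times.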

How the results depend on the processing

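Of 2350 log2 fold changes recomputed under the alternatives for 113 results, 2112 kept their direction and their side of the threshold, 136 lost the call, 62 gained it and 40 changed sign. Most of the 113 results were not called as reported and so could not lose a call. The 136 losses all fell on the called results and are not to be read as a share of 2350. With 4 groups of 2 arrays, the number of arrays limits the precision, and leaving out 1 array of a group assumes that the lone array left varies like the other groups. The cause of the shifts below was not tested, beyond fewer arrays where arrays were left out.

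The number of members called for A20 before LR was 1 and became 3 by the methods' criterion, 2 with 1 probe set a gene, 3 with the β-actin covariate, 0 with only the 4 arrays compared, 0 without both βgal arrays of low integrity, and 0 to 4 without single arrays (4 without pre-βgal 2, 1 without either post-βgal array, and 0 without any of the other 5). For A20 after LR it went from 0 to 1 by the methods' criterion, with 1 probe set a gene and with the covariate, and was 0 to 1 without single arrays (1 without either pre-βgal array). For LR in βgal livers it went from 1 to 2 with median centring, with a minimum mean of 100, with no variance trend, with robust moderation and with 1 probe set a gene, to 4 with the covariate and to 0 with only the 4 arrays compared, and was 0 to 2 without single arrays (2 without either pre-βgal array, otherwise 0). For LR in A20 livers it was 2, became 3 with the covariate, and ran from 0 to 2 without single arrays (0 without post-A20 2 or either pre-A20 array, otherwise 2). For A20 averaged over both times it was 3 and ran from 0 to 4 without single arrays (4 without pre-βgal 2, 3 without pre-βgal 1, 1 without pre-A20 1, otherwise 0). For LR averaged over both transgenes it was 3, 6 with the covariate, 4 without either pre-βgal array and 2 without any of the other 6. For the difference of responses it was 0, and 2 by the methods' criterion. Calls over all 42703 probe sets moved too, and the member counts are to be read beside them. With the covariate these calls went from 783 to 2284 for A20 before LR and from 121 to 1129 after it. For LR they went from 472 to 3925 in βgal livers, from 233 to 1746 in A20 livers and from 1327 to 4063 on average. With only the 4 arrays compared they were 0 for A20 before LR and for LR in βgal livers.

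As the replicate numbers are not said to pair pools, the replicate block is given here only. It raised the members called for A20 before LR from 1 to 2, adding Ppara 1449051_at (log2 fold change 1.32, adjusted p = 0.0333), and left the counts of the other 6 comparisons as they were. Among the other genes named, Eci2 for LR in βgal livers (adjusted p = 0.0523) and Fkbp5 for LR in A20 livers (0.0542) lost the call with it. Over all 42703 probe sets, the block called 1164 for A20 before LR, against 783 without it. As a block within each transgene it gave 3 members for LR in βgal livers, where 2901 of all 42703 probe sets were called, against 472 without it. Deviations of arrays with the same number correlated at 0.675 between pre-βgal and post-βgal, whose arrays 1 were those of low RNA integrity, and at −0.186 to 0.213 between the other group pairs.

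Some log2 fold changes, none of them called, changed sign under other alternatives. With the covariate, A20 after LR gave 0.013 for Angptl4 1417130_s_at (−0.18 as reported) and −0.306 for the probe set shared by Cyp4a10 and Cyp4a31 (0.47). Without both βgal arrays of low integrity, LR in βgal livers gave −0.395 for that shared probe set (0.54) and −0.088 for Ppara 1457721_at (0.07), and A20 after LR gave −0.074 for Pdk4 (0.25). For LR in βgal livers, median centring gave 0.001 for Ppara 1439675_at and 0.001 for Ppara 1449051_at (both −0.05), and quantile normalisation gave −0.003 for Ppara 1457721_at.

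Without single arrays, log2 fold changes spanned 0 as follows. For A20 before LR they ran from −0.196 to 0.365 for Angptl4 1453410_at and −2.442 to 0.302 for the shared Cyp4a10 and Cyp4a31 probe set. For A20 after LR they ran from −0.05 to 0.39 for Cpt1a 1434866_x_at, −0.137 to 1.083 for the shared Cyp4a10 and Cyp4a31 probe set and −0.074 to 0.564 for Pdk4. For LR in βgal livers they ran from −0.141 to 0.491 for the shared Acot1 and Acot2 probe set, −0.033 to 0.36 for Angptl4 1453410_at, −0.833 to 1.911 for the shared Cyp4a10 and Cyp4a31 probe set, −0.143 to 0.038 for Ppara 1439675_at, −0.425 to 0.321 for Ppara 1449051_at and −0.109 to 0.246 for Ppara 1457721_at. For LR in A20 livers they ran from −0.243 to 0.396 for Cpt1a 1438156_x_at and −0.485 to 0.062 for Ppara 1449051_at. For A20 averaged over both times they ran from −0.076 to 0.266 for Angptl4 1417130_s_at, −0.984 to 0.388 for the shared Cyp4a10 and Cyp4a31 probe set and −0.08 to 0.253 for Ppara 1439675_at. For LR averaged over both transgenes they ran from −0.319 to 0.054 for Ppara 1449051_at. For the difference of responses they ran from −0.095 to 0.538 for the shared Acot1 and Acot2 probe set, −1.585 to 0.041 for Cpt1a 1460409_at and −0.533 to 0.213 for Ppara 1449051_at.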
